A study of Homo sapiens with 10 samples.

Results

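The genes described here are the nuclear-encoded subunits of the mitochondrial respiratory chain and the ATP synthase, measured by RNA sequencing in H441, a human lung adenocarcinoma cell line. They were chosen by gene name, covering the NDUF, SDH, UQCR, COX and ATP5 subunit families with CYC1, and by having at least 10 reads in every one of the 10 libraries. The name rule matched 133 entries of 62709 in the count table that held values, and 72 passed the read minimum. Of these, 70 are subunits (31 of complex I, 4 of complex II, 8 of complex III, 10 of complex IV and 17 of complex V), and 2, ATP5F1EP2 and ATP5MFP4, are pseudogenes that carry a subunit family's name. NDUFA4 was counted with complex IV, since its product belongs to cytochrome c oxidase in spite of its name.

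The libraries fell into 4 groups, all of H441 cells grown in medium with 10% FBS. The KO group (n = 3) carries a CRISPR-Cas9 knockout of TET1, the dioxygenase that oxidises 5-methylcytosine in DNA, and was derived from the parental wild-type line, the WT group (n = 3). The OE group (n = 2) carried a transient TET1 overexpression from a plasmid with the full-length human gene, and was set against the Lipo group (n = 2), whose name the labels do not explain and which they record as wild type with no treatment. Whether the KO line is 1 clone is not given in the sources used here, and nothing there says that the libraries of a group came from separate cultures; a p-value therefore reflects the spread among these libraries, which may be technical. Total counts ran from 20994462 to 25981097 per library.

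The respiratory chain passes electrons from NADH (complex I) and succinate (complex II) through ubiquinone, complex III and cytochrome c to oxygen at complex IV, and complexes I, III and IV pump protons across the inner mitochondrial membrane. Complex V, the ATP synthase, uses the proton flow through a ring of c subunits to turn a catalytic F1 head. Most subunits are encoded in the nucleus, made on cytosolic ribosomes and imported, while a small set, including the reaction cores of complexes I, III and IV, is encoded in mitochondrial DNA.

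TET1 itself had 4, 0 and 8 reads in the KO libraries and 2, 7 and 0 reads in the WT libraries, so the knockout cannot be checked at the level of RNA. It had 17883 and 20805 reads in the OE libraries, against 0 and 1 reads in the Lipo libraries. The epithelial and lung markers EPCAM, KRT8, KRT18, CDH1, NKX2-1, SFTPB and SLC34A2 were detected in every group, while SFTA2 was at 0 throughout. Of these 7 genes 3 fell in KO set against WT, SFTPB by 1.97, SLC34A2 by 1.497 and CDH1 by 0.75 on the log2 scale. SFTPB also fell in OE set against Lipo, by 1.35, and in Lipo set against WT, by 1.36. The part of these changes in the members' values was not tested. Of 6 immune markers none averaged above 2.22 CPM in any group, and the fibroblast genes COL1A2, COL3A1, DCN and PDGFRB were at or near 0. The fibroblast gene COL1A1 averaged 63.9 CPM in KO and 231 CPM in WT, and 308 CPM in OE and 154 CPM in Lipo, and LUM averaged 10.6 CPM in KO and 17.5 CPM in WT, and 39.3 CPM in OE and 21.4 CPM in Lipo. KO 1 and WT 1 departed from the other libraries of their groups in how counts followed GC content.

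Counts were compared as CPM, counts divided by library sizes that TMM scaling had adjusted. Levels between genes were compared as RPKM, which is CPM per kilobase of annotated exon. In WT cells the members had a median of 21.6 RPKM. NDUFS5, a small accessory subunit of complex I, stood highest at 189 RPKM. It was followed by ATP5F1B, the catalytic beta subunit of the ATP synthase, at 173 RPKM and by COX8A, a small subunit of complex IV, at 124 RPKM. Complex IV had the highest median level at 33.7 RPKM, followed by complex III at 24.6 RPKM, complex V at 23.4 RPKM, complex I at 16.8 RPKM and complex II at 5.30 RPKM. The lowest subunit was NDUFA9, a complex I subunit near the quinone site, at 0.617 RPKM, below NDUFV2, an iron-sulfur subunit of the NADH-oxidising module, at 0.948 RPKM. The annotated length includes retained introns. The length of the longest annotated transcript gave a median of 29.5 RPKM with nearly the same order of members (Spearman rho = 0.965 across 72 genes, which are not independent).

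The KO libraries held more nuclear-encoded respiratory chain RNA than the WT libraries. The members that passed the test were mostly subunits of the ATP synthase and small accessory subunits, and none of the catalytic subunits named here rose. Summed over the 72 members, the level was 5727, 5349 and 6478 CPM in KO, against 4916, 4615 and 4405 CPM in WT. The KO and WT ranges did not overlap. Of the 72 members, 21 rose in KO (29.2%) and 1 fell, by edgeR's quasi-likelihood test with Benjamini-Hochberg adjusted p under 0.05. Among all 15832 genes tested, 5.13% rose and 7.45% fell. The median log2 fold change of the members was 0.35, beside 0.00340 over all genes tested, and 60 of 72 values were positive. CPM ranges of KO and WT did not overlap for 23 members that were higher in KO and for 1 that was lower, where 13.1% and 14.5% of all genes showed such a gap. The count of 21 depended on single libraries: it was 10 without KO 3, 8 without WT 2, 6 without WT 3, and 10 without any 1 of OE 1, OE 2, Lipo 2 and Lipo 3, which share the estimate of spread. Without KO 3, 2 members fell. With all 5 libraries labelled wild type as the control, 13 members rose, where 5.19% of all genes did. For the other alternative fits, here and below, the share of all genes called is not given. The calls that held in each of 10 fits leaving out 1 library were 7 in number: ATP5MC1, ATP5MC2, UQCRB, NDUFB1, UQCR10, NDUFS5 and CYC1. Of these, ATP5MC2 was not called with the 5 libraries labelled wild type as the control, where its log2 fold change was 0.73, against 0.99 with WT alone.

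**Figure D1:**
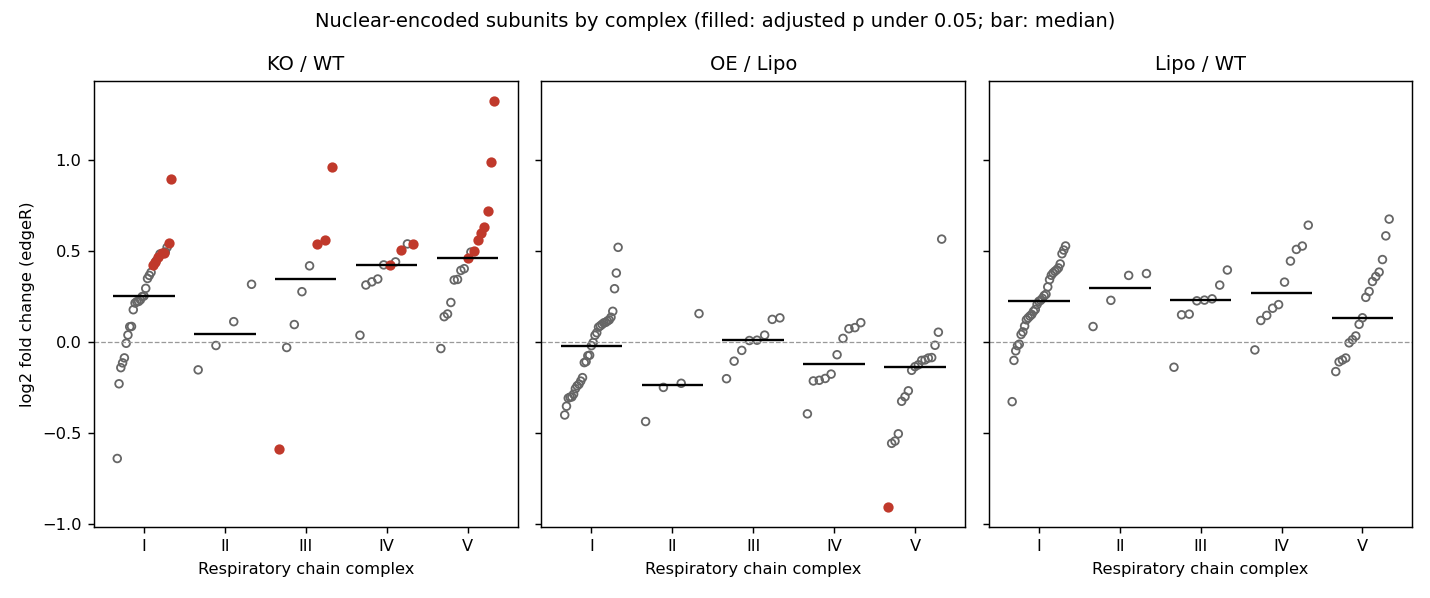
Log2 fold change of each nuclear-encoded subunit (1 point per gene) by complex, for KO over WT, OE over Lipo and Lipo over WT. Filled points passed the adjusted p threshold of 0.05 and bars are medians; in KO over WT the filled points are 21 above 0 and CYC1 below it, while OE over Lipo has 1 and Lipo over WT has none.

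Complex V held the highest share of members that rose. Of its 17 subunits 8 rose in KO and none fell, with a median log2 fold change of 0.46. Most of these calls lay in the membrane sector, where 5 of 8 subunits rose and all 8 values were positive (median 0.58). In the F1 head 2 of 5 rose, and in the peripheral stalk 1 of 4. The catalytic subunits did not pass the test: ATP5F1A, the alpha subunit, differed by -0.04 on the log2 scale (adjusted p = 0.881) and ATP5F1B by 0.14 (adjusted p = 0.439).

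ATP5MC1 (ENSG00000159199, chromosome 17, 48892765 to 48895871, plus strand, GRCh38), 1 of 3 genes that encode the same mature c subunit of the proton-driven ring, had the highest fold change of all members. It had 50.1, 63.2 and 86.0 CPM in KO libraries, against 22.9, 27.1 and 29.6 CPM in WT libraries. Every KO library stood above every WT library. It was 2.50-fold higher in KO, a log2 fold change of 1.32 ± 0.18 (SE, adjusted p = 0.00017). ATP5MC2 (ENSG00000135390, chromosome 12, 53632726 to 53677408, minus strand), the second c subunit gene, had 109, 180 and 240 CPM in KO, against 67.9, 99.2 and 99.3 CPM in WT. KO 1 lay only slightly above the highest WT library, and the difference was 0.99 ± 0.22 (SE, adjusted p = 0.00905). ATP5MC3, the third gene, had 83.2, 86.8 and 101 CPM in KO and 63.7, 74.6 and 75.1 CPM in WT. Its ranges did not overlap either, but its difference of 0.34 ± 0.12 missed the threshold (SE, adjusted p = 0.0779). Summed, the 3 c subunit genes reached 333 ± 92.2 CPM in KO and 186 ± 27.8 CPM in WT (SD, n = 3 each). Per length, ATP5MC1 made up 30.8% ± 1.60 of the c subunit RNA in KO and 23.7% ± 1.25 in WT, and ATP5MC3 made up 16.8% ± 3.67 in KO and 24.7% ± 1.81 in WT (SD, n = 3 each). ATP5MC2, with the largest share, made up 52.4% ± 5.09 in KO and 51.6% ± 2.84 in WT (SD, n = 3 each). The ATP5MC1 share was also high in OE, at 31.3% ± 3.72, with 26.1% ± 0.799 in Lipo (SD, n = 2 each). The ATP5MC3 share was 27.2% ± 1.11 in OE and 20.1% ± 0.357 in Lipo (SD, n = 2 each).

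**Figure D2:**
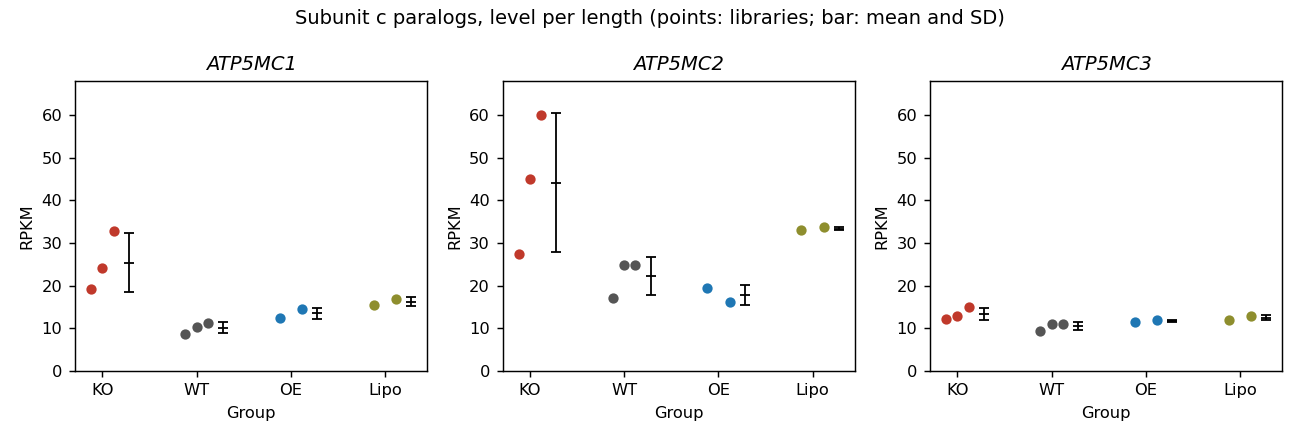
RPKM of the 3 genes for the ATP synthase c subunit in each library (points), with mean and SD beside them, for KO, WT, OE and Lipo. ATP5MC1 and ATP5MC2 have their highest mean in KO, where the libraries also spread most, while ATP5MC3 stays between 9 and 16 RPKM in every library.

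The other membrane sector subunits that rose were small membrane proteins, among them subunits e and g, which lie where ATP synthase dimers meet. ATP5ME, subunit e, had 48.5, 43.1 and 61.2 CPM in KO, against 35.8, 33.6 and 29.2 CPM in WT (log2 0.63, adjusted p = 0.0115). The ranges did not overlap, but 61.6% of the exon length of ATP5ME is overlapped by MYL5, and without a stated strand setting the reads of the pair cannot be told apart. ATP5MJ rose by 0.60 and ATP5MG, subunit g, by 0.56 on the log2 scale (adjusted p = 0.0389 and 0.0186). The ATP5MJ ranges overlapped, with 96.1 CPM in KO 2 and 102 CPM in WT 1. ATP5F1D, the delta subunit of the F1 stalk, rose by 0.72, but its KO libraries ran from 36.9 to 85.1 CPM and overlapped the WT range of 30.9 to 41.0 CPM (adjusted p = 0.0453). ATP5F1C, the rotating gamma subunit, rose by 0.50 and ATP5PD, subunit d of the stalk, by 0.46 (adjusted p = 0.0430 and 0.0419). The ATP5F1C ranges overlapped too, with 114 CPM in KO 2 and 117 CPM in WT 1.

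Complex III held both directions. UQCRB (ENSG00000156467, chromosome 8, 96225920 to 96235634, minus strand), a ubiquinone-binding accessory subunit, had 469, 310 and 408 CPM in KO, against 278, 169 and 161 CPM in WT. WT 1 stood well above the other WT libraries but below every KO library. The difference was 0.96 ± 0.19 (SE, adjusted p = 0.00378). UQCR10, a small subunit of the membrane part, had 124, 105 and 136 CPM in KO, against 85.4, 83.9 and 82.3 CPM in WT, a difference of 0.54 ± 0.12 (SE, adjusted p = 0.00713) with no overlap. UQCRQ, another small ubiquinone-binding subunit, rose by 0.56 (adjusted p = 0.0476).

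CYC1 (ENSG00000179091, chromosome 8, 144095027 to 144097525, plus strand), the cytochrome c1 that hands electrons to cytochrome c, was the member that fell. It had 64.8, 69.7 and 83.7 CPM in KO, against 99.96, 113 and 114 CPM in WT. Every KO library lay below every WT library, and the difference was -0.59 ± 0.12 (SE, adjusted p = 0.00548), so it was lower in KO. The Rieske iron-sulfur subunit UQCRFS1 differed by -0.03 (adjusted p = 0.938) and the core protein UQCRC1 by 0.10 (adjusted p = 0.736).

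The members on chromosome 8 moved in the direction of the genes around them. Of the 79 other genes tested within 5 Mb of CYC1, 29 fell (36.7%) and none rose, with a median log2 fold change of -0.78, beside the member's own -0.59. Of the 45 within 5 Mb of UQCRB, 15 rose (33.3%) and 2 fell, with a median of 0.45. COX6C and NDUFB9, the other members on this chromosome, rose by 0.54 and 0.43, and the genes within 5 Mb of them had medians of 0.33 and 0.58. Over the whole chromosome 19.2% of genes rose. NDUFV2, on chromosome 18, had 0.706, 1.41 and 2.81 CPM in KO and 3.29, 1.83 and 2.59 CPM in WT, a difference of -0.64 that did not pass the test (adjusted p = 0.345), and 23 of its 34 tested neighbours fell (median -0.99). The neighbours of ATP5MC1, ATP5MC2 and NDUFS5 had medians of 0.07, 0.13 and -0.06, those of NDUFB1 and UQCR10 of 0.16 and 0.24. The part of these neighbourhoods in the members' values was not tested.

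Complex I changed in its membrane arm by count. Of 31 subunits 7 rose and none fell (median 0.25). In the P module, the proton-pumping membrane arm, 6 of 19 rose (median 0.38). In the N module, which oxidises NADH, 1 of 7 rose (NDUFS4, 0.44, adjusted p = 0.0451), and in the Q module, which reduces ubiquinone, none of 5 rose (median -0.01). At an unadjusted p under 0.05 the Q module count was also 0. NDUFB1 (ENSG00000183648, chromosome 14, 92116122 to 92121917, minus strand), a single-pass membrane subunit, had 30.04, 23.99 and 39.8 CPM in KO, against 20.4, 14.4 and 15.6 CPM in WT. The ranges did not overlap, and the difference was 0.90 ± 0.19 (SE, adjusted p = 0.00608). NDUFS5 had 143, 134 and 175 CPM in KO, against 105, 107 and 98.4 CPM in WT, and rose by 0.54 ± 0.12 (SE, adjusted p = 0.00888). NDUFC2, NDUFA1, NDUFB6 and NDUFB9, all accessory subunits of the membrane arm, rose by 0.43 to 0.49. The core subunit NDUFV1, which binds FMN, differed by 0.21 (adjusted p = 0.228).

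In complex IV 3 of 10 subunits rose, and all 10 values were positive (median 0.42). COX6C had 98.7, 94.2 and 120 CPM in KO, against 67.7, 79.2 and 67.8 CPM in WT (log2 0.54 ± 0.13 SE, adjusted p = 0.0104). COX7C had 126, 105 and 129 CPM in KO, against 87.8, 84.4 and 80.6 CPM in WT (log2 0.51 ± 0.12 SE, adjusted p = 0.0123). Neither overlapped. COX5B, which binds zinc, rose by 0.43 (adjusted p = 0.0472). In complex II none of 4 subunits passed the test, nor did any at an unadjusted p under 0.05 (median 0.05). SDHA, its flavoprotein, averaged 30.5 ± 5.52 CPM in KO and 33.9 ± 6.06 CPM in WT, and SDHB, its iron-sulfur subunit, differed by -0.02 on the log2 scale (adjusted p = 0.945).

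**Figure D3:**
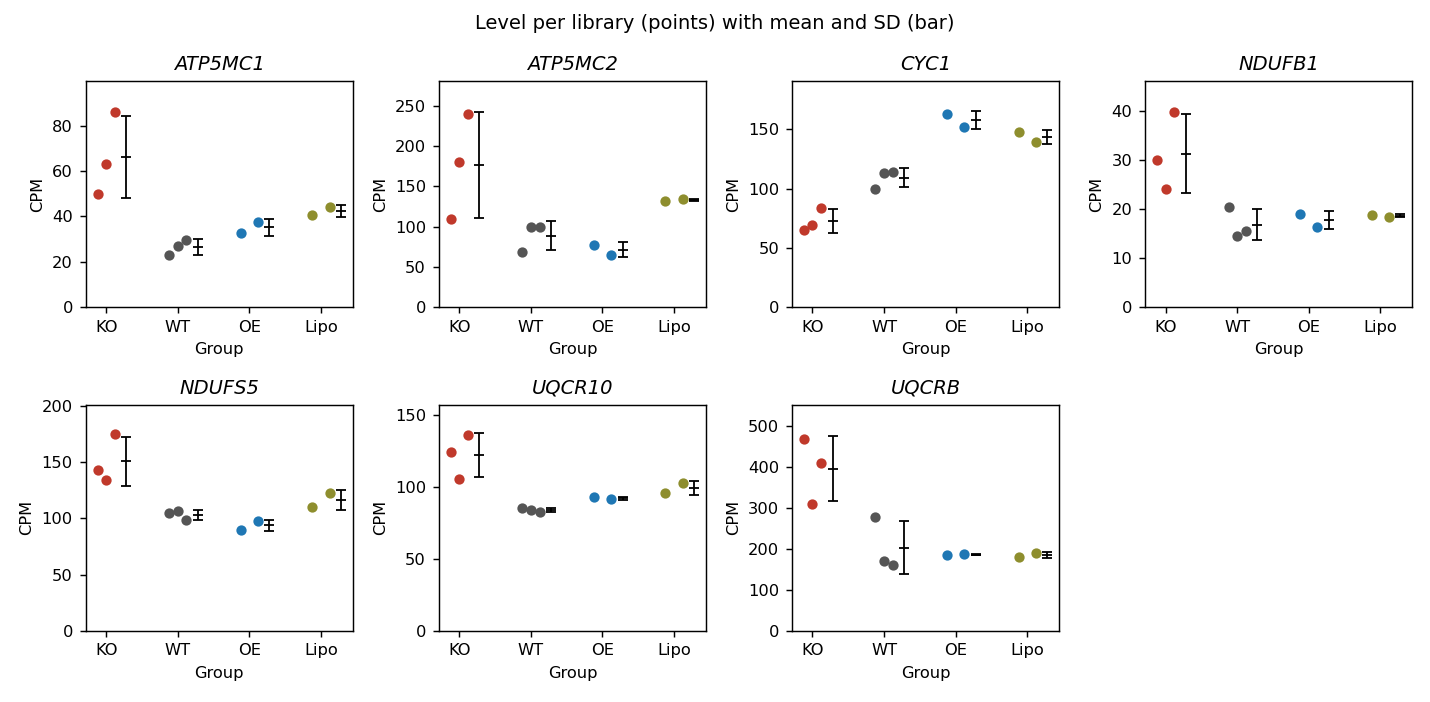
CPM per library (points) with mean and SD for the 7 members called in KO over WT in every fit that left out 1 library. KO libraries lie above all WT libraries in 6 panels and below them for CYC1.

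Summed by complex, the KO libraries averaged 2304 ± 156 CPM for complex V, against 1800 ± 174 CPM in WT. The averages were 911 ± 120 CPM in KO and 669 ± 76.8 CPM in WT for complex III, and 796 ± 125 CPM in KO and 595 ± 31.8 CPM in WT for complex IV. Complex I averaged 1679 ± 189 CPM in KO and 1422 ± 42.5 CPM in WT, and complex II 159 ± 16.9 CPM in KO and 157 ± 13.6 CPM in WT (SD, n = 3 in each group). The difference in complex II was smaller than the spread between replicates.

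In the fit of all 10 libraries, TET1 overexpression moved few of these genes past the threshold. In OE set against Lipo, 1 of 72 members fell and none rose, where 6.79% of all genes tested rose and 5.53% fell. At an unadjusted p under 0.05, 7 fell and none rose, and DESeq2 called 2 lower. More members fell with OE and Lipo fitted alone, without a filter on low counts or with a GC trend offset, and fewer with a stricter filter. The counts are given in the closing section, where the fit of OE and Lipo alone has the most. The median log2 fold change was -0.09, beside -0.00710 over all genes tested. The CPM ranges did not overlap for 10 members that were higher and 33 that were lower, against 32.8% of all genes each way, a share that 2 libraries a group make high. The member that fell was ATP5MC2, with 77.7 and 64.5 CPM in OE, against 132 and 134 CPM in Lipo (log2 -0.91 ± 0.27 SE, adjusted p = 0.0437). Its call was lost when any 1 of KO 2, WT 2, OE 1, OE 2, Lipo 2 and Lipo 3 was left out, while 2 members fell without KO 1 or KO 3 and 3 without WT 1. It was also lost with a stricter filter on low counts, a GC trend offset, a replicate block, and WT or both control groups in place of Lipo, with its value still negative. ATP5ME had 28.99 and 32.2 CPM in OE, against 42.1 and 48.0 CPM in Lipo (log2 -0.56, adjusted p = 0.0608), and ATP5F1C had 66.0 and 65.3 CPM in OE, against 88.5 and 98.0 CPM in Lipo (log2 -0.51, adjusted p = 0.0933). ATP5MC1 had 32.6 and 37.8 CPM in OE, against 40.5 and 44.3 CPM in Lipo, and did not pass the test (log2 -0.27, adjusted p = 0.475). The direction over the members depended on the control: with WT in place of Lipo the median was 0.14, with 5 members called higher and 3 lower.

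The knockout and overexpression effects were compared directly as the KO over WT change minus the OE over Lipo change, in which each library enters once. The difference was positive and passed the test for 14 members and negative for 1, where 7.16% and 9.47% of all genes tested did so. All 15 were also called in KO over WT, but the difference contains that change and its libraries, so these calls are not independent. The ATP synthase membrane sector led by count, with 5 of its 8 subunits: ATP5MC2 (1.89 ± 0.35 SE, adjusted p = 0.00201), ATP5MC1 (1.59 ± 0.28 SE, adjusted p = 0.00126), ATP5ME (1.19 ± 0.24 SE, adjusted p = 0.00304), ATP5MJ and ATP5MG. ATP5MC1, ATP5MC2 and ATP5ME held in each fit that left out 1 library. CYC1 ran the other way, at -0.72 (adjusted p = 0.0196), and its call was lost without WT 2, OE 1, OE 2, Lipo 2 or Lipo 3. The count of 14 was 3 without OE 1 or Lipo 3, 7 without OE 2 and 8 without Lipo 2, and 3 members were called lower without KO 3.

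**Figure D4:**
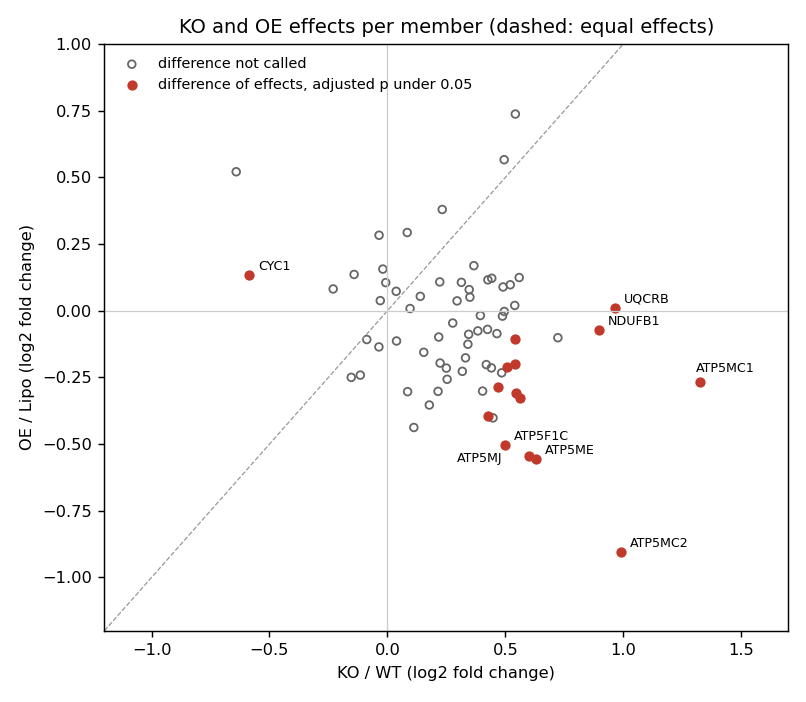
Log2 fold change of each member in KO over WT (horizontal axis) and in OE over Lipo (vertical axis), with equal effects on the dashed line. Filled points passed the test of the difference of the 2 effects (adjusted p under 0.05); ATP5MC2 lies at 0.99 and -0.91, ATP5MC1 at 1.32 and -0.27 and CYC1 at -0.59 and 0.13.

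The control groups themselves differed. In Lipo set against WT no member passed the test by edgeR, where 1.32% of all genes rose and 2.38% fell, but 18 were higher and none lower at an unadjusted p under 0.05, and DESeq2 called 2 higher. The edgeR count was 3 without KO 1, 1 without KO 2 and 7 without KO 3. The median over the members was 0.23, beside -0.0169 over all genes, with 59 of 72 values positive. The ranges did not overlap for 36 members higher and 2 lower in Lipo, where 21.3% and 22.2% of all genes did not. ATP5MC1 had 40.5 and 44.3 CPM in Lipo, against 22.9, 27.1 and 29.6 CPM in WT (log2 0.68 ± 0.20 SE, adjusted p = 0.0730), and COX5B 94.4 and 92.6 CPM in Lipo, against 65.7, 69.7 and 61.7 CPM in WT (log2 0.51, adjusted p = 0.0701). Since KO over WT and Lipo over WT share the WT libraries, and OE over Lipo and Lipo over WT share the Lipo libraries, these values are not independent of those above.

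Of the 13 mitochondrially encoded subunits of the same complexes none passed the test in KO over WT (1 was higher and none lower at an unadjusted p under 0.05), with a median log2 fold change of 0.06. Their summed level was 54054 ± 10239 CPM in KO and 50922 ± 3919 CPM in WT (SD, n = 3 each), a difference smaller than the spread between replicates. In OE 11 of 13 fell, with a median of -0.82, and their summed level was 44436 ± 1058 CPM in OE and 79726 ± 4559 CPM in Lipo (SD, n = 2 each). MT-CO3, a core subunit of complex IV, differed by -1.39 (adjusted p = 6.56e-05) and MT-ATP6, the subunit that faces the c ring, by -1.13 (adjusted p = 0.000147). In Lipo set against WT 9 of 13 rose and 1, MT-ND6, fell. The nuclear members, by contrast, summed to 5016 ± 48.4 CPM in OE and 5368 ± 118 CPM in Lipo (SD, n = 2 each). MALAT1, a nuclear-retained RNA, averaged 204 ± 2.49 CPM in OE and 196 ± 38.2 CPM in Lipo (SD, n = 2 each), with 1213 ± 740 CPM in KO and 1189 ± 584 CPM in WT (SD, n = 3 each). The other nuclear-retained RNA examined differed by 1.21 in OE set against Lipo and by -0.50 in KO set against WT on the log2 scale. It passed the test in both, and both RNAs fell in Lipo set against WT. The part of these differences between libraries in the members' values was not tested.

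**Figure D5:**
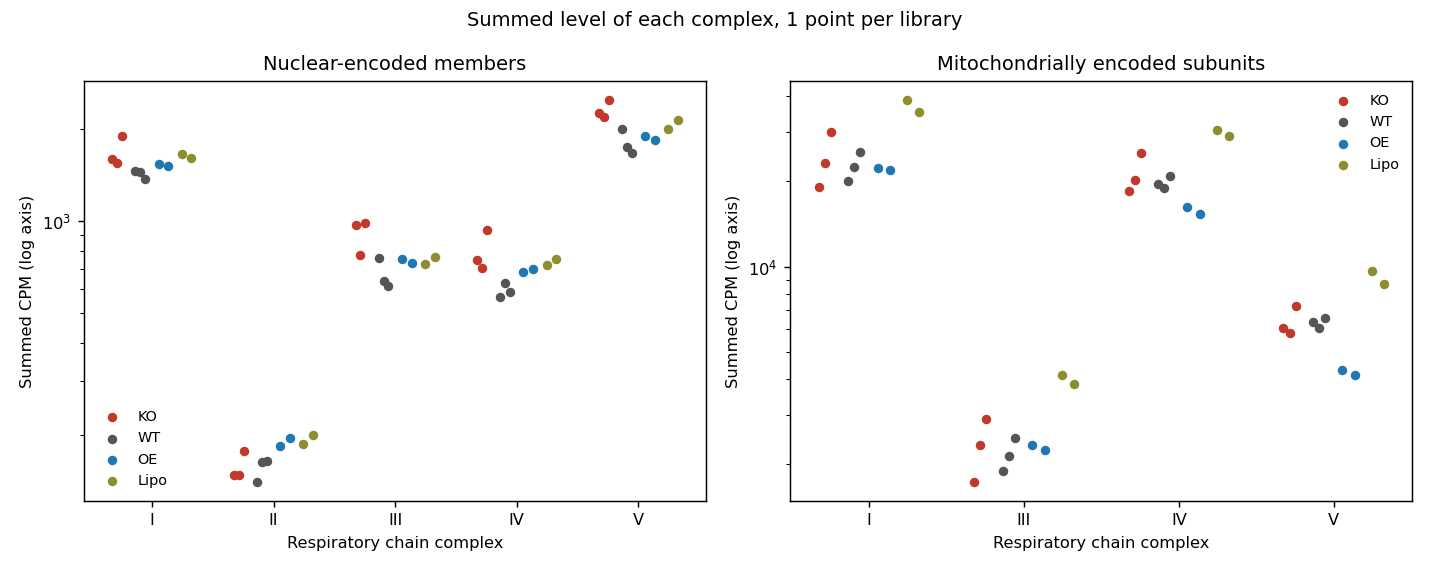
Summed CPM of the nuclear-encoded members (left) and of the mitochondrially encoded subunits (right) by complex on log axes, 1 point per library. Nuclear sums of complexes I, III, IV and V lie above every WT library in every KO library, while mitochondrially encoded sums are highest in the Lipo libraries.

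The lists of genes that build or regulate the chain were short, so their counts are set beside the shares over all genes tested. Those shares were 5.13% higher and 7.45% lower in KO set against WT, and 6.79% higher and 5.53% lower in OE set against Lipo. In KO the share that rose was 11.1% for complex I, 16.7% for complex III and 8% for complex IV assembly. Of 18 complex I assembly factors 2 rose in KO, NDUFAF6 (log2 1.05), on chromosome 8, and DMAC1 (0.66), and none fell. Of 25 genes listed for complex IV assembly 2 rose, COA4 (0.41) and SLIRP (0.88), which binds mitochondrial mRNA. Of 6 complex III factors LYRM7 rose by 0.68 and TTC19 fell by 0.45. None of 6 complex V, 4 complex II factors or 16 tricarboxylic acid cycle enzymes passed the test in KO by edgeR. At an unadjusted p under 0.05 these lists held 0, 1 and 4 genes, with 2 of the last higher and 2 lower. Of 16 regulators of respiratory genes MYC rose by 0.78, and it too lies on chromosome 8. In OE set against Lipo, 1 of 4 complex II assembly factors, SDHAF4, fell by 1.34. Of 25 complex IV factors 3 rose, SCO2, COA7 and COX19, by 0.79, 0.58 and 0.55, and TMEM70, 1 of 6 complex V factors, rose by 0.70. TWNK, the mitochondrial DNA helicase, rose by 1.08, and no complex I or III factor passed the test. Among 6 subunits or close relatives outside the name rule, COX7A2L, which joins complexes III and IV, rose in KO by 0.42 (adjusted p = 0.0185), and COX4I1, an obligate complex IV subunit, differed by 0.29 (adjusted p = 0.146).

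Other short housekeeping messages moved in KO with the members. Of 37 cytosolic ribosomal protein genes tested, 30 rose in KO and none fell (median log2 0.57), and in OE set against Lipo 3 fell and none rose (median -0.24). The annotated exon length of the members had a median of 2324 bases, against 5113 bases for all protein-coding genes tested. Protein-coding genes under 1000 bases had a median log2 fold change of 0.23 in KO over WT, where the 9 members in that range had 0.49. From 1000 to 2000 bases the medians were 0.42 for 19 members and 0.15 for all genes, and from 2000 to 4000 bases 0.40 for 25 members and 0.06 for all genes. Above 8000 bases they were 0.09 for 7 members and -0.12 for all genes. Within each of these wide ranges of length the members' median was above that of all genes in it. Across the members the KO over WT change was lower at greater exon length (Spearman rho = -0.312, 72 genes, a description). With an offset for the length trend the calls of NDUFA1, NDUFS4 and NDUFB6 were lost. The part of message length in the members' values was not tested.

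The libraries of a group also differed by base composition. Across the members, the deviation of a library from its group mean followed the GC content of the transcripts with a Spearman rho of -0.42 in KO 1 and -0.40 in WT 1, and of 0.28 to 0.38 in KO 2, KO 3, WT 2 and WT 3 (72 genes in each, a description). Leaving out KO 1 and WT 1 together, chosen after seeing the data, gave 32 members higher in KO, as did a correction for the GC trend.

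Promoter windows were taken from RefSeq (GRCh38.p14), each with 250 bases before and 50 after the annotated start, for 56 of the 72 members in 67 windows. Because TET1 acts on methylated CpG, CpG dinucleotides were counted. Windows of the members held a median of 21 CpG, those of members that rose in KO also 21, those of all genes tested 25, and all windows 14. Motifs of factors known to bind respiratory gene promoters were searched on both strands by exact letters. The NRF1 motif (GCGC, then A and any base, then GCGC) was found in 22.4% of member windows, against 9.99% of windows of genes tested and 5.78% of all windows. The ETS motif CCGGAAG, bound by GABPA, was in 28.4% of member windows, 16.7% of windows of genes tested and 10.3% of all windows. The YY1 motif AAGATGG was in 22.4%, 6.91% and 5.84% of these windows in the same order. The GC box GGGCGG, which SP1 binds, was in 61.2%, 64.6% and 45%, and the CCAAT box in 32.8%, 34.8% and 34.6%. Between members that rose in KO and those that did not, NRF1 matches were at 23.5% of 17 windows (15 genes) and 22% of 50 windows (41 genes). ETS matches were at 35.3% and 26%, GC boxes at 41.2% and 68%, and CCAAT boxes at 35.3% and 32%. Windows of 1 gene can overlap, so they are not independent. NDUFC1, which did not rise, has several windows, each with a GC box. A match describes letters in the window, not binding, and these shares were not tested.

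The windows of the members that rose in every fit leaving out 1 library are shown to give the sequence context of the changes, for 4 of them. Each is written 5′ to 3′ on the gene's own strand in lower case, with matches to the motifs above in capitals. ATP5MC1 (chr17:48892537-48892836) holds 4 CCAAT boxes, 3 of them nearer to the start than to the far end, and 20 CpG. ATP5MC2 (chr12:53676034-53676333, 1 of 3 windows listed) holds 1 GC box and 24 CpG, NDUFB1 (chr14:92121657-92121956) holds 1 CCAAT box and 23 CpG, and UQCR10 (chr22:29767119-29767418) holds 1 NRF1 match, 1 CCAAT box and 13 CpG.
ATP5MC1: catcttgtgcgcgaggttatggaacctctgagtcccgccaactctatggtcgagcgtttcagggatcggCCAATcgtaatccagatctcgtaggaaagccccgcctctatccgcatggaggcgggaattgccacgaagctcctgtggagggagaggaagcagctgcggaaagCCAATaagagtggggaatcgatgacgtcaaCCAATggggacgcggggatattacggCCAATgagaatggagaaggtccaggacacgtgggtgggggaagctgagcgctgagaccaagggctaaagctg
ATP5MC2: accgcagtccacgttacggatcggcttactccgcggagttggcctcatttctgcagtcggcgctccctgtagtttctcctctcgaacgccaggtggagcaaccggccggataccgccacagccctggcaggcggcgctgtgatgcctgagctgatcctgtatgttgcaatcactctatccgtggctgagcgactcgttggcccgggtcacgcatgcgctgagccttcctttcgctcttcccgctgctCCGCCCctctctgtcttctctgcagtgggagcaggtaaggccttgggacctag
NDUFB1: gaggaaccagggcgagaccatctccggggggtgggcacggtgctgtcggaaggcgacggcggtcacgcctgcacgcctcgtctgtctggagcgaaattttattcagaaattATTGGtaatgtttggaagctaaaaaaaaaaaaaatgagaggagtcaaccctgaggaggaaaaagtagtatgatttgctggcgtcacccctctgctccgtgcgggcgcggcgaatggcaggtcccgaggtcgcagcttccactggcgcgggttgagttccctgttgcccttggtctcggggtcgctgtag
UQCR10: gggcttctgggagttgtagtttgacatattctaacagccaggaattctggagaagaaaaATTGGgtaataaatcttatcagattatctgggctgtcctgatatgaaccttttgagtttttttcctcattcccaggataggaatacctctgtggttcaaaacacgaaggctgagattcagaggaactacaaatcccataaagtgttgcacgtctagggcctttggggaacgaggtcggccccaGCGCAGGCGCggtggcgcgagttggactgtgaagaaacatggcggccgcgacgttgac

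Several subunits that the complexes need were nearly absent from the count table and so are not among the members. NDUFS1, the largest subunit of the NADH module, had 297, 0 and 3 reads in KO, against 3, 9 and 10 reads in WT, and 2 and 61 reads in OE, against 1 and 7 reads in Lipo. NDUFS3, NDUFA3 and NDUFA6, also of complex I, reached at most 5, 5 and 3 reads in any library. UQCRC2, a core protein of complex III, fell just short of the read minimum with 9 reads in its lowest library, and NDUFA7 had 5, while the member nearest the minimum, ATP5MFP4, had 11 and NDUFV2 had 16. COX6A2, COX7A1, COX7B2 and COX8C, isoforms known from muscle or testis, were at 0 in every library. How reads were assigned between overlapping genes and copies is not given in the sources used here, and 50 further entries matching the name rule, mostly pseudogene names, held at most 26 reads. Of the 22 called members 7 share over 10% of their exon length with another gene: NDUFA1, NDUFB9, NDUFC2, UQCRQ, ATP5ME, ATP5MG and ATP5PD.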

How the data were processed

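RNA was sequenced from 10 H441 libraries, from 1 µg of RNA each with a stranded total RNA kit, per the labels. The deposited table holds read counts per gene on a GRCh38 annotation; HISAT2 2.1.0, FastQC, featureCounts and edgeR are named in the submitters' processing notes, with no role or order, and the strand setting is not given there. Of 12 count columns 2 matched no sample and were not used, and 1 of 62710 entries held no values. Members and gene lists were chosen with earlier results of these data known.

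One edgeR 4.0.16 fit (R 4.3.3; filterByExpr, TMM, robust glmQLFit and glmQLFTest) covered all 10 libraries and 15832 genes, with 6 residual degrees of freedom; p-values were adjusted over all genes by Benjamini-Hochberg, with a threshold of 0.05. A standard error is the log2 fold change over the square root of F. The procedure was tested on simulated data. Lengths, GC content and positions came from GENCODE 29. Genes named are those that passed a test, the highest and lowest of each complex, and core and c subunits. Alternatives were DESeq2 1.42.0, other scalings, filters, controls, length and GC offsets, a replicate block and leaving out libraries. The table's depth, 20994462 to 25981097 counts per library, limits precision most for the members with few reads.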

Additional observations from a re-analysis of the deposited data

Results flagged for a closer look

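The KO over WT change and the OE over Lipo change differed by edgeR's test of the difference for 15 members. On the log2 scale the difference was 1.89 for ATP5MC2, 1.59 for ATP5MC1, 1.19 for ATP5ME, 1.15 for ATP5MJ, 1.00 for ATP5F1C and 0.89 for ATP5MG in the ATP synthase. It was 0.97 for NDUFB1, 0.85 for NDUFS5 and 0.76 for NDUFB6 in complex I, 0.95 for UQCRB and 0.65 for UQCR10 in complex III, and 0.82 for COX5B, 0.74 for COX6C and 0.72 for COX7C in complex IV. For CYC1 it was -0.72.

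NDUFS1, outside the comparisons for its low counts, had 297 reads in KO 1 and 61 reads in OE 2, against at most 10 reads in any WT or Lipo library.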

How the results depend on the processing

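The count of members higher in KO than in WT was 21 and became 32 with a GC trend offset, 9 with WT and KO fitted alone, 13 with WT and Lipo pooled as the control and 32 without WT 1 and KO 1 together. Replicate numbers were not taken to pair the libraries in the main fit, since the correlation over all genes was low for replicate 2. Same-numbered KO and WT deviations correlated there at 0.33, 0.06 and 0.19. Each of these was still the highest value of that KO library with any WT library. Over the 72 members they correlated at 0.62, 0.22 and 0.64, with KO 2 closer to WT 3 (0.40) than to WT 2. Whether the numbers mark a shared batch was not tested. A replicate block gave 36 with WT and KO alone and 32 with all 10 libraries. Leaving out 1 library gave 6 to 24 higher and 1 to 2 lower, with medians of 0.24 to 0.41. In OE over Lipo, members higher numbered 1 with only the groups compared, 5 with WT as control and 1 without WT 1 and KO 1, against 0. Members lower numbered 4 without a filter, 0 with a stricter filter, 3 with a length offset, 4 with a GC offset, 18 with only the groups compared, 2 with the replicate block, 3 with WT as control, 2 with WT and Lipo pooled, 5 without WT 1 and KO 1, 2 with DESeq2 and 0 to 3 without 1 library, against 1. The member called there, ATP5MC2, is not among those called with the GC offset, the replicate block, WT as control or WT and Lipo pooled. The median was 0.14 with WT as control, against -0.09. In Lipo over WT, members higher numbered 5 without a filter, 1 with a length offset, 10 with a GC offset, 4 with only the groups compared, 2 with the replicate block, 7 without WT 1 and KO 1, 2 with DESeq2 and 0 to 7 without 1 library, against 0. The difference of effects gave 26 higher with a GC offset, 28 without WT 1 and KO 1 and 3 to 20 without 1 library, against 14, and 0 to 3 lower, against 1. The cause of these shifts was not tested, except that fits of fewer libraries have fewer residual degrees of freedom. Without the share of all genes called in each fit, these counts do not tell a shift of the members from one of the whole table. The GC offset and leaving out WT 1 and KO 1 together were chosen after seeing the data. No called member changed sign under any alternative; 77 values of members that were not called did. The median RPKM of the members in WT was 29.5 by the longest transcript, against 21.6. Depth and 2 or 3 libraries a group limit what could be called; the smallest rise called in KO over WT was 0.43 on the log2 scale.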
